A study of Mus musculus with 9 samples.

Results

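The genes described here encode the proteins that make the lysosome work: its proteases, its sugar-cleaving and sulfate-removing enzymes, its lipid enzymes and lipid-binding proteins, its membrane proteins and the factors that regulate it. A list of 49 gene symbols was used, chosen with earlier results of these data known. Of these, 48 had a probe set assigned to that gene alone, out of 22180 genes tested, and where a gene had several such probe sets the brightest over the 9 arrays was taken. The remaining gene, Glb1, shares its probe set with another gene. Expression was measured on Affymetrix Mouse Gene 2.0 ST arrays in the adipose tissue that surrounds the prostate (periprostatic fat), with 1 array per mouse. The animals were male C57BL/6J mice, wild type as far as the labels say. From 6 weeks of age, 5 mice ate a high fat diet with 60 kcal% fat and 4 mice a low fat diet with 10 kcal% fat. Feeding went on for 12 weeks, and the fat was collected at 18 weeks of age. The low fat mice are a dietary control and not animals on standard chow. Values are log2 expression, so a difference of 1 is a 2-fold difference, and differences are high fat minus low fat.

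Lysosomes are acidic compartments in which proteins, glycans and lipids brought in by endocytosis, phagocytosis or autophagy are broken down. Most of their enzymes are made in the endoplasmic reticulum, tagged with mannose 6-phosphate in the Golgi and carried to the lysosome by receptors of that tag. The transcription factors TFEB, TFE3 and MITF bind a short DNA element, called CLEAR, near the start sites of many lysosomal genes. In adipose tissue lysosomes are found in adipocytes and in stromal cells, and are abundant in macrophages, which take up lipid and remnants of dead adipocytes.

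Lysosomal genes were mostly higher in high fat diet. Of the 48 genes, 32 rose (66.7%) and 3 fell (6.25%) by limma with Benjamini-Hochberg adjustment over all genes, at an adjusted p under 0.05, whereas 13 did not pass. Over all 22180 genes 21.5% were called, with 12.4% higher and 9.13% lower (2742 and 2026 genes). That background includes dim genes, whereas the lysosomal genes lay on average at percentile 90.4 of mean level. With genes below the median of mean level left out, 2548 genes were higher and 1932 lower, of which 32 and 4 were lysosomal genes of the list. The number of calls changed little although the dimmer genes were removed, so both shares called are larger there than 12.4% and 9.13%. No share at a matched level was computed. The median difference of the 48 genes was 0.32, against 0.00 over all genes. Scaling moved the balance of all genes. A repeated quantile normalization gave 2320 higher and 2771 lower genes, of which 31 and 3 were lysosomal genes of the list. Centring each array on its median gave 2227 and 3056, of which 30 and 5 were lysosomal. The increases ran from 1.14-fold (Sgsh) to 3.77-fold (Ctss), and those of Ctss, Lipa, Lgmn and Gla exceeded a log2 difference of 1. The genes that fell were Ctso, Arsb and Ids, by 1.17-fold to 1.45-fold. The values of high fat and low fat mice were fully separate for 32 lysosomal genes that were higher in high fat diet and for 5 that were lower, against 11.6% and 9.15% of all genes. These are not quite the called genes: Tfeb rose with overlapping groups, and Laptm4a, Ctsc and Smpd1 had separate groups without passing. The plot of differences by role shows most intervals to the right of 0, with the sulfatases split.

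**Figure D1:**
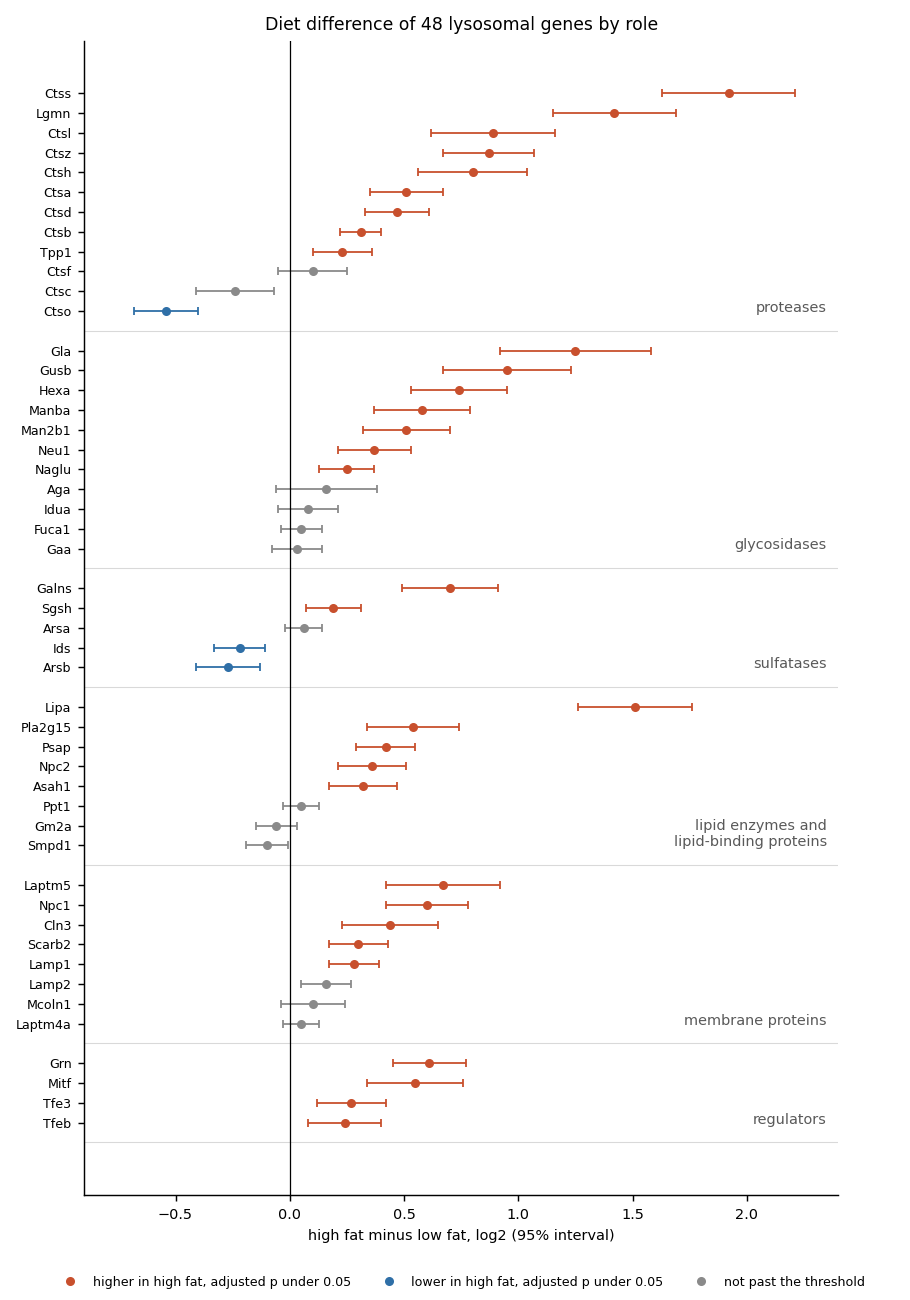
Difference between diets (high fat minus low fat, log2, with the 95% interval of the limma fit) for each of the 48 genes, arranged by role and coloured by call. Ctss (1.92), Lipa (1.51) and Lgmn (1.42) lie farthest to the right, and Ctso (-0.54), Arsb (-0.27) and Ids (-0.22) are the 3 genes called lower.

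Cell type markers of the depot differed between the diets as well. Macrophage markers rose in 13 of 14 genes, and Mertk fell (-0.14). Their mean log2 level lay at 10.44 to 11.03 in high fat mice and 9.70 to 9.99 in low fat mice, and Adgre1, which encodes the macrophage marker F4/80, was 2.25-fold higher. Adipocyte markers fell in 8 of 11 measured genes and 1 rose, with a mean level of 12.06 to 12.26 in high fat mice and 12.42 to 12.49 in low fat mice, so the labelled tissue carried its defining markers in both groups. Fibroblast and progenitor markers rose in 5 of 9 genes, at 11.14 to 11.56 against 10.43 to 10.81. B and plasma cell markers had the widest shift of the marker lists (-1.08 in the mean level), at 7.43 to 8.83 in high fat mice and 8.88 to 9.82 in low fat mice. Of their 5 measured genes 2 fell, Jchain (-1.97) and Mzb1 (-0.45), which belong to antibody-secreting cells. The others, Ms4a1 (-1.13, limma adjusted p = 0.0503), Cd79a (-1.01) and Cd79b (-0.85), were also lower on average. Their groups overlapped, and they did not pass. Endothelial markers rose in 1 of 7 genes and fell in 1, neutrophil and mast cell markers likewise, and T and NK cell markers fell in 1 of 6. A single gene of such short lists is near the share of all genes, of which 12.4% rose and 9.13% fell. Whether these cell populations had a part in the lysosomal differences was not tested, and in whole tissue more cells of a type and more RNA per cell cannot be told apart. Muscle genes stood out in single arrays, skeletal muscle in high fat mouse 1 (a mean of 8.40, where the rest of its group had 6.36 to 6.47) and smooth muscle in low fat mouse 2 (10.66, where the rest had 8.36 to 8.40). Markers of prostate and seminal vesicle epithelium averaged 5.61 to 5.78 in all 9 mice, below the median of every array. Within that list the keratin genes Krt8 (7.38 to 8.23) and Krt18 (6.89 to 7.51) read higher. Every other measured gene of it stayed at 5.96 or below. Without high fat mouse 1 and low fat mouse 2 together, 30 lysosomal genes were higher and 3 lower. Without high fat mice 1 and 2, whose arrays had slightly wider distributions, 26 were higher and 2 lower.

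**Figure D2:**
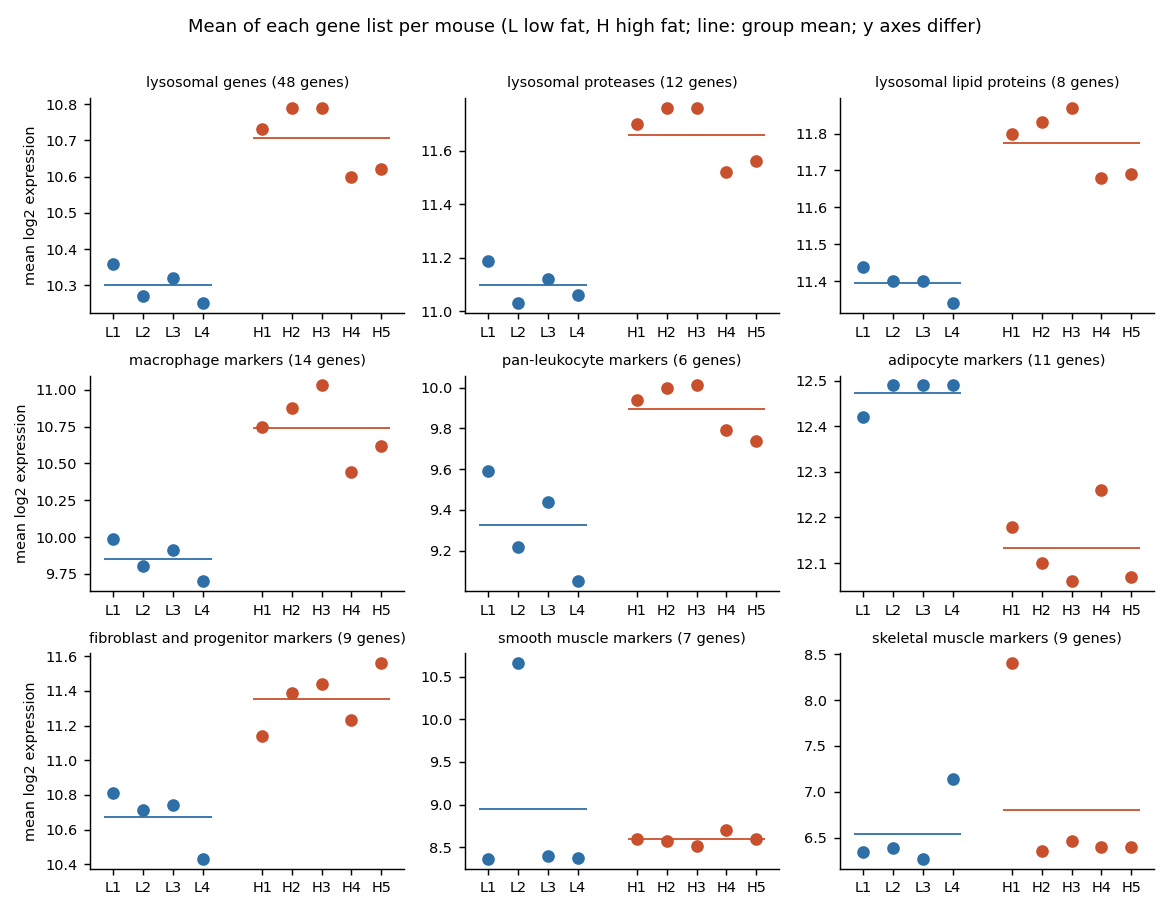
Mean log2 expression of gene lists in each mouse, with low fat mice L1 to L4 in blue, high fat mice H1 to H5 in red and lines at group means. The 48 lysosomal genes average 10.60 to 10.79 in high fat mice and 10.25 to 10.36 in low fat mice, macrophage markers separate the diets in the same direction and adipocyte markers in the opposite one.

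The regulators of the list all rose in high fat diet (4 of 4 genes). Values in this and the following paragraphs are given in the order of the mouse numbers. Mitf, the transcription factor best known from melanocytes and osteoclasts and also active in macrophages (probe set 17461132), read 9.26, 9.37, 9.35, 8.90 and 9.07 in high fat mice and 8.67, 8.58, 8.66 and 8.66 in low fat mice. The groups did not overlap, and the difference of 0.55 ± 0.09 (SE) was a 1.46-fold increase (adjusted p = 0.00218). High fat mice 4 and 5 lay below the other 3 high fat mice. Tfe3, a relative of Mitf that moves to the nucleus when nutrients are scarce, read 10.02, 10.15, 10.19, 10.10 and 10.06 in high fat mice and 9.75, 9.99, 9.91 and 9.69 in low fat mice. Its difference was 0.27 ± 0.07 (SE), 1.21-fold (adjusted p = 0.0167), with low fat mouse 2 just below the lowest high fat mouse, and without high fat mice 1 and 2 it did not pass (0.28, adjusted p = 0.0556).

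Tfeb encodes another of the factors that bind CLEAR. It read 6.97, 7.09, 7.19, 6.96 and 6.97 in high fat mice and 6.76, 6.68, 6.97 and 6.79 in low fat mice. Low fat mouse 3 lay within the range of the high fat mice, and the difference was 0.24 ± 0.07 (SE), 1.18-fold (adjusted p = 0.0362). The Tfeb call was lost without high fat mouse 2, high fat mouse 3, low fat mouse 1, low fat mouse 2 or low fat mouse 4 in turn (0.20 to 0.23, adjusted p = 0.0752 to 0.0955). It was also lost with quantile normalization repeated (0.19, adjusted p = 0.077), with arrays centred on their medians (0.19, adjusted p = 0.0748) and with array weights (0.21, adjusted p = 0.0591). Tfeb values lay near the medians of the arrays over the genes tested (6.91 to 6.98), and whether they lay above background was not determined. Grn, which encodes progranulin, a secreted and lysosomal protein cut into granulins, read 12.65, 12.71, 12.74, 12.45 and 12.53 in high fat mice and 12.11, 11.96, 12.06 and 11.87 in low fat mice. All high fat mice were higher than all low fat mice, by 0.61 ± 0.07 (SE) or 1.53-fold (adjusted p = 0.000328).

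On the deposited values the log2 difference of Mitf was larger than that of Tfeb. Tfeb lay at percentile 49.6 of mean level over all genes and Mitf at 79.3. Whether Tfeb lay above background was not determined, so the sizes of these differences may not be comparable. The within-mouse difference of Mitf minus Tfeb was 0.31 higher in high fat mice, with no overlap between the groups (two-sided exact permutation test, p = 0.0159, the smallest possible here, and 0.0212 adjusted over the 8 pairs of genes compared in this report). For Tfe3 minus Tfeb the difference was 0.03 with SDs of 0.05 in high fat mice and 0.18 in low fat mice (exact permutation adjusted p = 0.794). Without low fat mouse 2 this Tfe3 and Tfeb difference was 0.12 and passed (adjusted p = 0.0408), and without low fat mouse 3 or 4 it was 0.00 and -0.01.

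Promoter windows from RefSeq on GRCm38.p6, of 300 bases from 250 before to 50 after a start site, were listed for 42 of the 48 genes. Ctsb, Ctsh, Aga, Galns, Asah1 and Npc1 had no entry. The full CLEAR consensus, a palindrome, its shorter form TCACGTG and the bare E-box CACGTG were searched on both strands, each longer form holding the shorter ones. TCACGTG was found in 11 of the 42 genes (26.2%), against 5.13% of 16990 tested genes with a window, 8.07% of the 3532 among them in the top 20% of mean array level, and 3.77% of all 32851 windows. The full consensus was found in 1 gene, Cln3 (2.38%, against 0.494% of tested genes and 0.326% of all windows), and CACGTG in 13 genes (31.0%, against 9.19% and 7.15%). Of the lysosomal genes that rose, 8 of 27 with a window held TCACGTG (29.6%), of those that did not pass 3 of 12 (25%), and of those that fell 0 of 3. Among the genes with a window but without TCACGTG were Ctss and Lipa. A match of letters is a description of the window and not of binding.

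The following stretches hold the matches of the 4 genes with TCACGTG whose difference between diets was largest, and of Cln3 and Lamp1, chosen after the values were seen for the full consensus and for 4 matches in a row. All are written 5′ to 3′ on the strand of the gene, with TCACGTG and its reverse complement in capitals.
Lgmn: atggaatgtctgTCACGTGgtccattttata
Gla: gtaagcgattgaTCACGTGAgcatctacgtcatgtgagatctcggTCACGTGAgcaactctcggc
Ctsa: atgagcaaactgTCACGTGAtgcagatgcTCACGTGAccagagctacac
Ctsd: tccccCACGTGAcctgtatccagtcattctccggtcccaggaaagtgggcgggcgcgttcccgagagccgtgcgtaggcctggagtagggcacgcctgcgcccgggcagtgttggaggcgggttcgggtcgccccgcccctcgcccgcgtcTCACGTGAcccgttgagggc
Cln3: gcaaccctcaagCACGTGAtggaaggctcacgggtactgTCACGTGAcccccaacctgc
Lamp1: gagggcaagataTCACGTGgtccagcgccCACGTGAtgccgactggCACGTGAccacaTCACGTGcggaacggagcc
The stretch of Lgmn lies at chr12:102439124-102439154 on the minus strand, and its match begins 50 bases before a listed start site. That of Gla is at chrX:134601181-134601245 on the minus strand, with matches that begin 228 and 195 bases before the start site. That of Ctsd is at chr7:142387907-142388077 on the minus strand, with matches 245 and 99 bases before it. The stretch of Ctsa, at chr2:164833748-164833796 on the plus strand, spans a start site, with 1 match before it and 1 after it. Cln3 is at chr7:126583339-126583397 on the minus strand and Lamp1 at chr8:13159087-13159163 on the plus strand, with matches that begin 62, 45, 28 and 16 bases before its start site. All 6 genes rose in high fat diet, from 1.21-fold (Lamp1) to 2.68-fold (Lgmn). They were picked by the size of their difference or after the values were seen, so their increase says nothing about the match. Mcoln1 (0.10), Arsa (0.06) and Gaa (0.03) also held TCACGTG and did not pass.

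Proteases formed the group with the largest single increase. Of 12 genes, 9 rose and 1 fell, and the median difference was 0.49. Ctss, a cysteine cathepsin of antigen-presenting cells that trims the invariant chain of class II molecules (probe set 17400375), read 11.70, 11.77, 11.79, 11.23 and 11.38 in high fat mice and 9.85, 9.61, 9.71 and 9.46 in low fat mice. All high fat mice lay more than 1 log2 unit above all low fat mice, and the difference of 1.92 ± 0.13 (SE) was a 3.77-fold increase (adjusted p = 3.29e-05). Lgmn, the asparaginyl endopeptidase legumain that activates other cathepsins, read 11.73, 11.85, 11.95, 11.37 and 11.61 in high fat mice and 10.44, 10.07, 10.40 and 10.21 in low fat mice. It was 2.68-fold higher, with a difference of 1.42 ± 0.12 (SE) (adjusted p = 7.26e-05), and again no low fat mouse reached the high fat range.

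Ctsl, a broad cysteine endopeptidase, read 12.67, 12.69, 12.76, 12.45 and 12.48 in high fat mice and 12.02, 11.36, 11.68 and 11.82 in low fat mice. The low fat mice varied more than the high fat mice, yet the groups did not overlap, and the difference was 0.89 ± 0.12 (SE), 1.85-fold (adjusted p = 0.000723). Ctsz, a cysteine carboxypeptidase, read 12.46, 12.51, 12.58, 12.21 and 12.26 in high fat mice and 11.65, 11.36, 11.60 and 11.56 in low fat mice. Its difference was 0.87 ± 0.09 (SE), 1.82-fold (adjusted p = 0.000177), and high fat mice 4 and 5 were the lowest of their group, as they were for Ctss and Ctsl. Of these cathepsins Ctss rose more than Ctsl: the within-mouse difference of Ctss minus Ctsl was 1.03 higher in high fat mice, without overlap (exact permutation p = 0.0159, adjusted p = 0.0212).

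Smaller increases were found in the other proteases that passed. Ctsh, an aminopeptidase, was 1.74-fold higher, and Ctsa, the carboxypeptidase that protects galactosidase and neuraminidase in a complex, 1.42-fold. Ctsd, the main aspartic protease of the lysosome, was 1.38-fold higher and Ctsb, an abundant cysteine protease, 1.24-fold. Ctsb differed by 0.31 only, but its mice varied little, with 13.59 ± 0.05 (SD, n = 5) in high fat and 13.28 ± 0.03 (SD, n = 4) in low fat diet. Tpp1, the tripeptidyl peptidase mutated in a childhood neuronal ceroid lipofuscinosis, was 1.17-fold higher (adjusted p = 0.018), a call lost without low fat mouse 4 (0.20, adjusted p = 0.0534) and without high fat mice 1 and 2 (0.21, adjusted p = 0.0869).

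Ctso, a less studied cysteine cathepsin, went the other way and read 10.43, 10.38, 10.23, 10.37 and 10.28 in high fat mice and 10.95, 10.87, 10.73 and 10.96 in low fat mice. All high fat mice lay below all low fat mice, by -0.54 ± 0.06 (SE) or 1.45-fold (adjusted p = 0.000271). Ctsc, the dipeptidyl peptidase that activates granule serine proteases, differed by -0.24 with groups that did not overlap, and just missed the threshold (95% interval -0.41 to -0.07, adjusted p = 0.0525). Ctsc passed with arrays centred on their medians (-0.28, adjusted p = 0.0269) and without low fat mouse 1 (-0.28, adjusted p = 0.0361). Ctsf differed by 0.10 (95% interval -0.05 to 0.25) and did not pass.

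**Figure D3:**
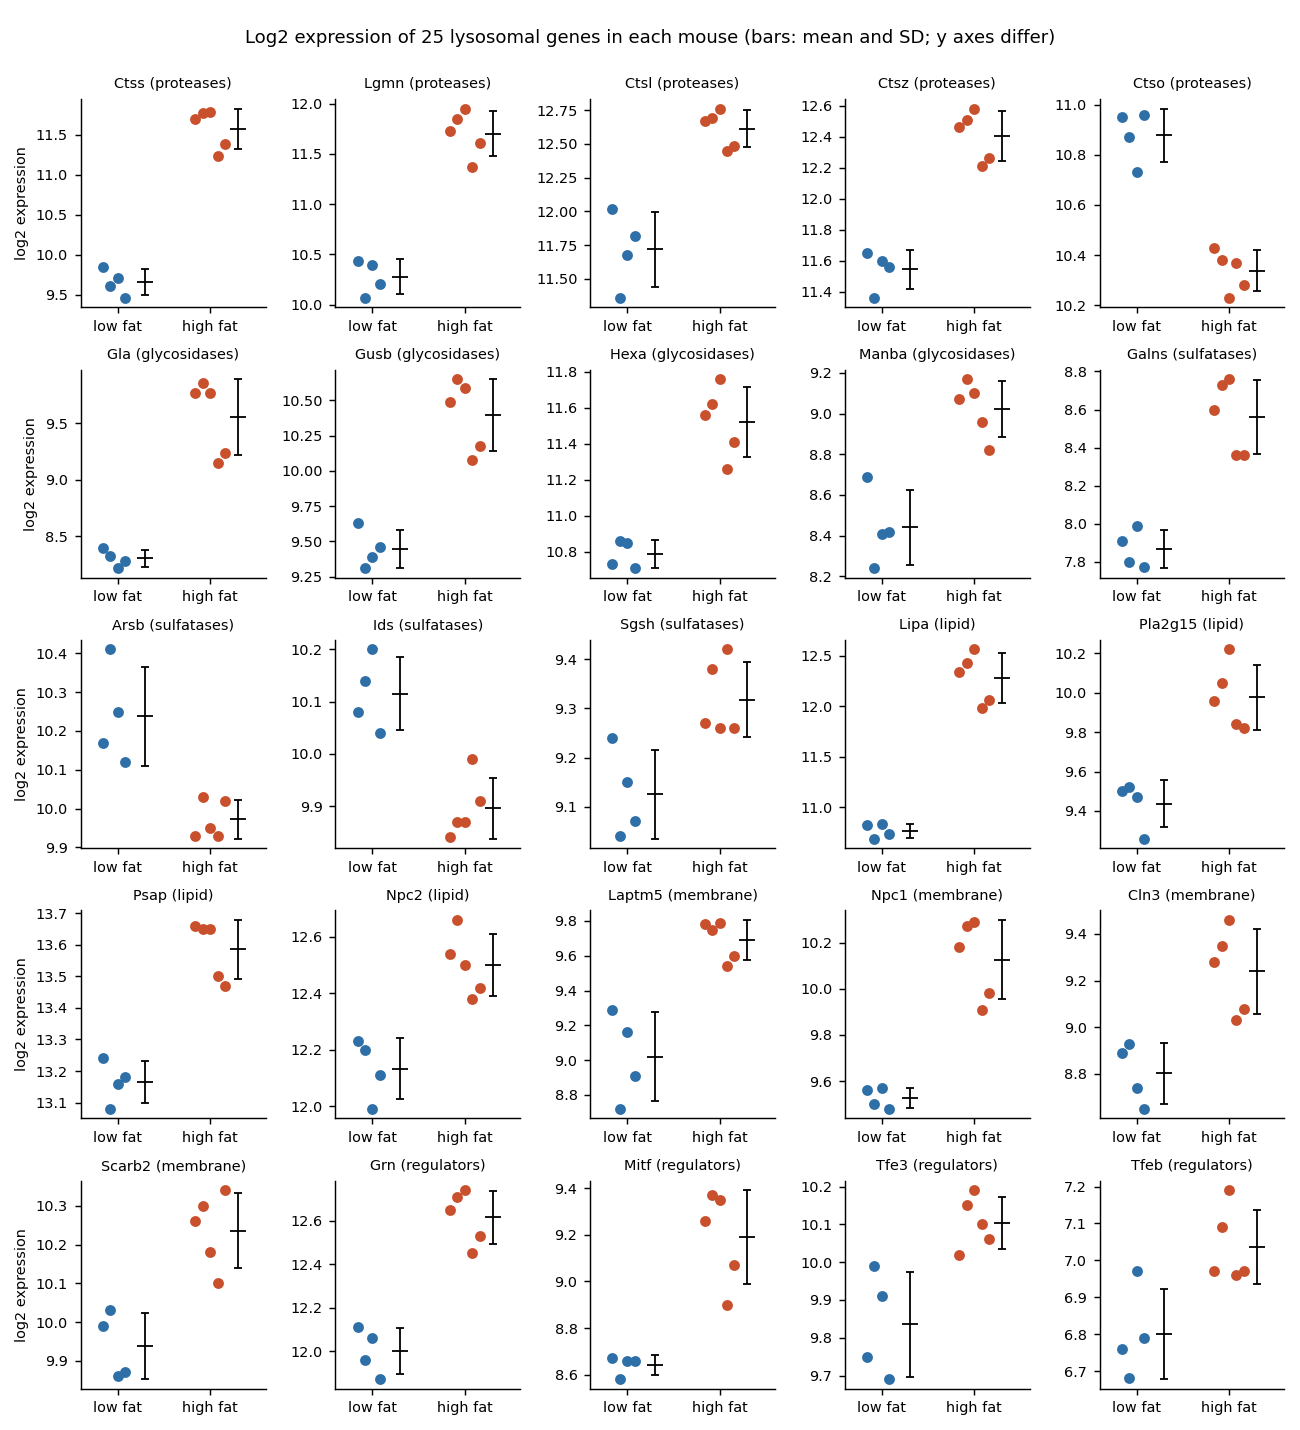
Log2 expression of 25 lysosomal genes in each of 4 low fat (blue) and 5 high fat (red) mice, with the mean and SD of each group. Ctss, Lgmn, Gla and Lipa show wide gaps between the diets, Ctso, Arsb and Ids are lower in high fat diet, and Tfeb is the gene of these 25 whose groups overlap.

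Glycosidases, which remove sugars from glycoproteins, glycolipids and glycosaminoglycans, rose in 7 of 11 measured genes, and none fell past the threshold. The median difference was 0.37. Gla, the alpha-galactosidase deficient in Fabry disease (probe set 17544517), read 9.77, 9.86, 9.77, 9.15 and 9.24 in high fat mice and 8.40, 8.33, 8.22 and 8.28 in low fat mice. It rose 2.38-fold, by 1.25 ± 0.15 (SE) (adjusted p = 0.000348), and high fat mice 1 to 3 stood well above high fat mice 4 and 5. Gusb, the beta-glucuronidase that cuts glycosaminoglycans, read 10.49, 10.65, 10.59, 10.08 and 10.18 in high fat mice and 9.63, 9.31, 9.39 and 9.46 in low fat mice. The groups did not overlap, and the difference was 0.95 ± 0.12 (SE), 1.93-fold (adjusted p = 0.000542).

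Hexa, the alpha subunit of the beta-hexosaminidase that degrades GM2 ganglioside, read 11.56, 11.62, 11.76, 11.26 and 11.41 in high fat mice and 10.73, 10.86, 10.85 and 10.71 in low fat mice. Low fat mice were close together, and high fat mice were 1.67-fold higher (difference 0.74 ± 0.09 (SE), adjusted p = 0.000472). Manba, the beta-mannosidase, read 9.07, 9.17, 9.10, 8.96 and 8.82 in high fat mice and 8.69, 8.24, 8.41 and 8.42 in low fat mice. The lowest high fat mouse exceeded the highest low fat mouse by little, with a difference of 0.58 ± 0.09 (SE) or 1.5-fold (adjusted p = 0.00181). Man2b1, the alpha-mannosidase of N-glycan breakdown, was 1.42-fold higher, Neu1, the sialidase that works in a complex with Ctsa, 1.29-fold, and Naglu, an enzyme of heparan sulfate breakdown, 1.19-fold. Those not called were Aga, which releases asparagine from N-glycans (0.16, 95% interval -0.05 to 0.38), Idua, the iduronidase of heparan and dermatan sulfate (0.08, -0.05 to 0.21), Fuca1, the fucosidase (0.05, -0.04 to 0.14), and Gaa, the acid glucosidase that degrades glycogen (0.03, -0.09 to 0.14). The value of Gaa turned to -0.02 with quantile normalization repeated.

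The sulfatases, which remove sulfate from glycosaminoglycans and sulfolipids, had calls in both directions: 2 of 5 rose, 2 fell and 1 did not pass. These shares were 40% each, against 12.4% and 9.13% of all genes. Of these calls only that of Galns held in every alternative fit. Galns, which acts on keratan sulfate and chondroitin sulfate, read 8.60, 8.73, 8.76, 8.36 and 8.36 in high fat mice and 7.91, 7.80, 7.99 and 7.77 in low fat mice. All high fat mice were higher, by 0.70 ± 0.10 (SE) or 1.62-fold (adjusted p = 0.000762). Sgsh, the sulfamidase of heparan sulfate, read 9.27, 9.38, 9.26, 9.42 and 9.26 in high fat mice and 9.24, 9.04, 9.15 and 9.07 in low fat mice. Low fat mouse 1 came just below the lowest high fat mice, and the difference was 0.19 ± 0.05 (SE), 1.14-fold (adjusted p = 0.0303). The Sgsh call was lost without high fat mouse 2, high fat mouse 4, low fat mouse 2, low fat mouse 3 or low fat mouse 4 in turn (0.17 to 0.20, adjusted p = 0.0551 to 0.0813) and with quantile normalization repeated or arrays centred on their medians (0.15 in both, adjusted p = 0.068 and 0.0626).

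Arsb, the sulfatase of dermatan sulfate, read 9.93, 10.03, 9.95, 9.93 and 10.02 in high fat mice and 10.17, 10.41, 10.25 and 10.12 in low fat mice. The groups did not overlap, and it was 1.2-fold lower (-0.27 ± 0.06 (SE), adjusted p = 0.0115). A dimmer probe set of Arsb differed by 0.03, and with the mean of both Arsb did not pass (-0.12, adjusted p = 0.33). Ids, the iduronate sulfatase that shares its substrates with Idua, read 9.84, 9.87, 9.87, 9.99 and 9.91 in high fat mice and 10.08, 10.14, 10.20 and 10.04 in low fat mice. All high fat mice were below all low fat mice, a difference of -0.22 ± 0.05 (SE) or 1.17-fold (adjusted p = 0.00808). Without high fat mice 1 and 2, Ids did not pass (-0.20, adjusted p = 0.0586). Arsa, which degrades sulfatide, differed by 0.06 (95% interval -0.01 to 0.14) and did not pass.

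Among lipid enzymes and lipid-binding proteins 5 of 8 genes rose, and none fell past the threshold. The median difference was 0.34. Lipa, the lysosomal acid lipase that hydrolyses cholesteryl esters and triglycerides delivered to the lysosome (probe set 17364114), read 12.34, 12.43, 12.56, 11.98 and 12.06 in high fat mice and 10.82, 10.69, 10.83 and 10.73 in low fat mice. The diets were more than 1 log2 unit apart, with a difference of 1.51 ± 0.11 (SE) or 2.84-fold (adjusted p = 4.77e-05). Pla2g15, the lysosomal phospholipase, read 9.96, 10.05, 10.22, 9.84 and 9.82 in high fat mice and 9.50, 9.52, 9.47 and 9.26 in low fat mice. No mouse of either diet entered the range of the other, and the difference was 0.54 ± 0.09 (SE), 1.45-fold (adjusted p = 0.00198). The increase of Lipa exceeded that of Pla2g15, with a within-mouse difference 0.97 higher in high fat mice and no overlap (exact permutation p = 0.0159, adjusted p = 0.0212).

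Psap, the precursor of the saposins that present sphingolipids to their enzymes, read 13.66, 13.65, 13.65, 13.50 and 13.47 in high fat mice and 13.24, 13.08, 13.16 and 13.18 in low fat mice. High fat mice were higher throughout, by 0.42 ± 0.06 (SE) or 1.34-fold (adjusted p = 6e-04). Npc2, the soluble protein that hands cholesterol to Npc1, read 12.54, 12.66, 12.50, 12.38 and 12.42 in high fat mice and 12.23, 12.20, 11.99 and 12.11 in low fat mice. The groups did not overlap, and the difference was 0.36 ± 0.07 (SE), 1.29-fold (adjusted p = 0.00429). Asah1, the acid ceramidase, was 1.25-fold higher (adjusted p = 0.00647), a call lost without high fat mice 1 and 2 (0.30, adjusted p = 0.051).

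The remaining proteins of the group did not pass. Ppt1, a thioesterase that removes fatty acids from proteins, differed by 0.05 (95% interval -0.03 to 0.12), Gm2a, the activator that lifts GM2 ganglioside for hexosaminidase, by -0.06 (-0.15 to 0.03), and Smpd1, the acid sphingomyelinase, by -0.10 (-0.19 to -0.01). Smpd1 was nevertheless lower in every high fat mouse than in any low fat mouse, and passed with arrays centred on their medians (-0.14, adjusted p = 0.043) and with the mean of its 2 probe sets (-0.18, adjusted p = 0.0179). Of the genes of GM2 breakdown, the enzyme subunit Hexa rose and the activator Gm2a did not pass. Gm2a minus Hexa was 0.80 lower in high fat mice, without overlap (-0.80, exact permutation p = 0.0159, adjusted p = 0.0212).

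Membrane proteins rose in 5 of 8 genes, and none fell past the threshold. The median difference was 0.29. Laptm5, a lysosomal protein of leukocytes that also stands on the list of pan-leukocyte markers, read 9.78, 9.75, 9.79, 9.54 and 9.60 in high fat mice and 9.29, 8.72, 9.16 and 8.91 in low fat mice. Low fat mice ranged widely but stayed below the high fat mice, which were 1.59-fold higher (difference 0.67 ± 0.11 (SE), adjusted p = 0.00201). The pan-leukocyte markers rose in 5 of 6 genes, Laptm5 included, with a mean level of 9.74 to 10.01 in high fat mice and 9.05 to 9.59 in low fat mice, and their part in the result was not tested. Laptm4a, a broadly expressed relative, differed by 0.05 (95% interval -0.02 to 0.13) and did not pass. Laptm5 minus Laptm4a was 0.62 higher in high fat mice (exact permutation p = 0.0159, adjusted p = 0.0212).

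Npc1, the membrane protein that exports cholesterol from lysosomes, read 10.18, 10.27, 10.29, 9.91 and 9.98 in high fat mice and 9.56, 9.50, 9.57 and 9.48 in low fat mice. Low fat mice were tightly grouped, and the difference was 0.60 ± 0.08 (SE), 1.52-fold (adjusted p = 0.000706). Cln3, a membrane protein mutated in juvenile neuronal ceroid lipofuscinosis, read 9.28, 9.35, 9.46, 9.03 and 9.08 in high fat mice and 8.89, 8.93, 8.74 and 8.65 in low fat mice. The groups did not overlap, with 1.35-fold more in high fat diet (difference 0.44 ± 0.10 (SE), adjusted p = 0.00942), a call lost without high fat mice 1 and 2 (0.39, adjusted p = 0.0671). Scarb2, the carrier of glucocerebrosidase to the lysosome, read 10.26, 10.30, 10.18, 10.10 and 10.34 in high fat mice and 9.99, 10.03, 9.86 and 9.87 in low fat mice. High fat mouse 5 was the highest of all 9, and the difference was 0.30 ± 0.06 (SE), 1.23-fold (adjusted p = 0.00589). The increase of Npc2 was 0.24 smaller than that of Npc1 on the log2 scale, which did not pass (-0.24, exact permutation adjusted p = 0.0544). That value turned to 0.03 when the 2 probe sets of Npc1 were averaged, the second of them reading 5.97 to 6.44 over all mice.

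Lamp1 and Lamp2, the abundant glycoproteins that line the lysosomal membrane, differed by little. Lamp1 was 1.21-fold higher, at 12.51 ± 0.07 (SD, n = 5) against 12.23 ± 0.06 (SD, n = 4) (adjusted p = 0.00288). Lamp2 was at 11.35 ± 0.07 (SD, n = 5) against 11.19 ± 0.07 (SD, n = 4) and just missed the threshold (0.16, 95% interval 0.04 to 0.27, adjusted p = 0.0526). It passed with quantile normalization repeated (0.15, adjusted p = 0.0418) and without high fat mouse 4 (0.18) or low fat mouse 2 (0.19). Lamp2 minus Lamp1 was 0.12 lower in high fat mice, a small difference with no overlap between the groups (-0.12, exact permutation p = 0.0159, adjusted p = 0.0212). Mcoln1, the calcium channel that signals to Tfeb through calcineurin, differed by 0.10 (95% interval -0.04 to 0.24) and did not pass.

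**Figure D4:**
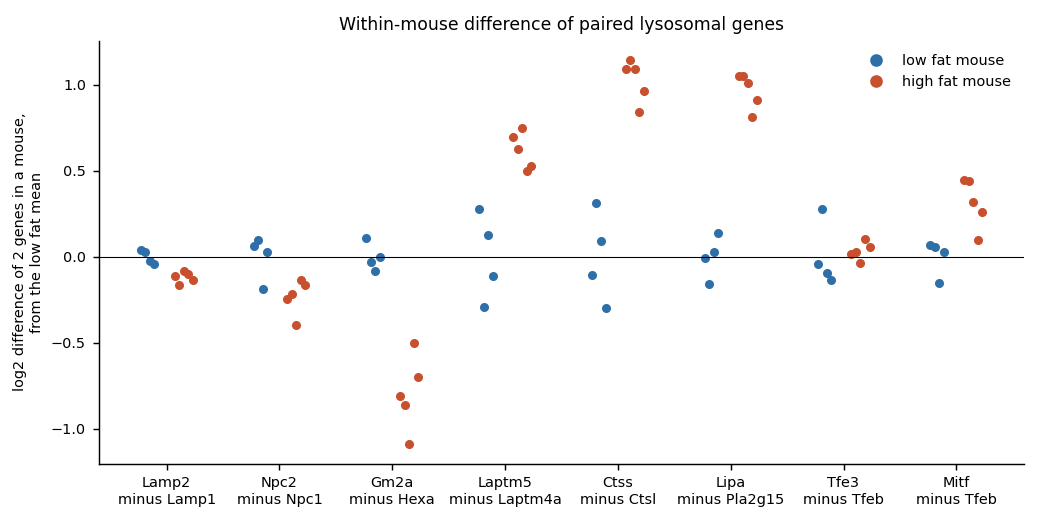
Within-mouse log2 difference of 8 pairs of lysosomal genes, set to a mean of 0 in low fat mice, for 4 low fat (blue) and 5 high fat (red) mice. Ctss minus Ctsl and Lipa minus Pla2g15 are near 1 in high fat mice, Gm2a minus Hexa is below 0, and Tfe3 minus Tfeb overlaps between the diets.

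High fat mice varied together across these genes. In 26 of the 32 genes that rose (81.2%), high fat mice 4 and 5 were both below the other 3 high fat mice, as they were in 1145 of the 2742 genes of the whole table that rose (41.8%). These mice were picked after the values were seen, the genes share the same arrays, and no test was made. The macrophage marker mean was also lowest in high fat mice 4 and 5 (10.44 and 10.62, against 10.75 to 11.03 in the other 3), and its part in the pattern was not tested.

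Further lysosomal genes outside the list were taken from 5 lists with 88 measured genes, of which 34 rose (38.6%) and 5 fell (5.68%). Over all genes, dim ones included, 12.4% rose and 9.13% fell. Other hydrolases and soluble proteins rose in 11 of 20 genes, led by p-value by Ifi30, the thiol reductase of antigen processing (2.42-fold), Prcp, a prolylcarboxypeptidase (1.7-fold), and Pld3 (2.38-fold), and 1 fell, Acp5, the tartrate-resistant phosphatase (1.42-fold lower). Ctsk, the collagen-degrading cathepsin of osteoclasts, named after its value was seen, read 10.32, 10.63, 10.64, 9.50 and 9.70 in high fat mice and 7.92, 7.49, 7.54 and 7.41 in low fat mice. The groups were far apart, with a 5.93-fold increase (2.57 ± 0.24 (SE), adjusted p = 0.000127). Other membrane proteins rose in 14 of 25 genes and 1 fell. Gpnmb, a glycoprotein of lipid-laden macrophages, was 12.1-fold higher, Cd68, the lysosomal glycoprotein used as a macrophage marker, 3.66-fold, and Tpcn2, a lysosomal cation channel, 2.34-fold, whereas Abca2, a lipid transporter, was 1.44-fold lower.

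Genes of mannose 6-phosphate tagging and sorting rose in 4 of 16 and fell in 2. These shares were 25% and 12.5%, against 12.4% and 9.13% of all genes. The share of all genes includes dim genes, whereas this list lay on average at percentile 86.5 of mean level. No share at a matched level was computed, so a rise of the list as a whole is not shown. Igf2r, the large mannose 6-phosphate receptor, was 1.59-fold higher, Ap1s1, a subunit of the clathrin adaptor AP-1, 1.23-fold, and the adaptor gene Gga3 1.3-fold, and the remaining one was Nagpa, the uncovering enzyme (1.22-fold). Sort1, which encodes sortilin, a sorting receptor also needed for glucose transporter vesicles of adipocytes, was 1.41-fold lower and Gga2 1.16-fold lower. Nutrient sensing genes of the lysosomal surface rose in 4 of 19 and fell in 1 (21.1% and 5.26%, against 12.4% and 9.13% of all genes). This list lay on average at percentile 74.8 of mean level, so the same limit holds for it. Fnip2, a partner of folliculin, was 2.27-fold higher and Lamtor3, a scaffold subunit, 1.29-fold. Gsk3b, a kinase that phosphorylates Tfeb, was 1.18-fold higher and Rragd, a Rag GTPase induced by Tfeb and its relatives, 1.43-fold. Rragd was dim, at percentile 35.3 of mean level, and passed narrowly (limma adjusted p = 0.0487). Its values ran from 6.90 in high fat mouse 1 to 6.01 in high fat mouse 5, against 5.97 in low fat mouse 1. Mtor, the kinase itself, was 1.09-fold lower. Of the cystatins, inhibitors of cysteine cathepsins, 1 of 8 rose (12.5%), about the share of all genes. This was Cstb, the cytosolic cystatin B. It read 11.60, 11.75, 11.80, 11.44 and 11.63 in high fat mice and 10.55, 10.58, 10.50 and 10.53 in low fat mice. The groups were far apart, with a 2.15-fold increase (difference 1.10 ± 0.07 (SE), adjusted p = 2.27e-05). Cst3, the secreted cystatin C, named after its value was seen, differed by 0.11 (95% interval 0.03 to 0.19) and did not pass. The plot of shares sets these lists beside the main list and all genes.

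**Figure D5:**
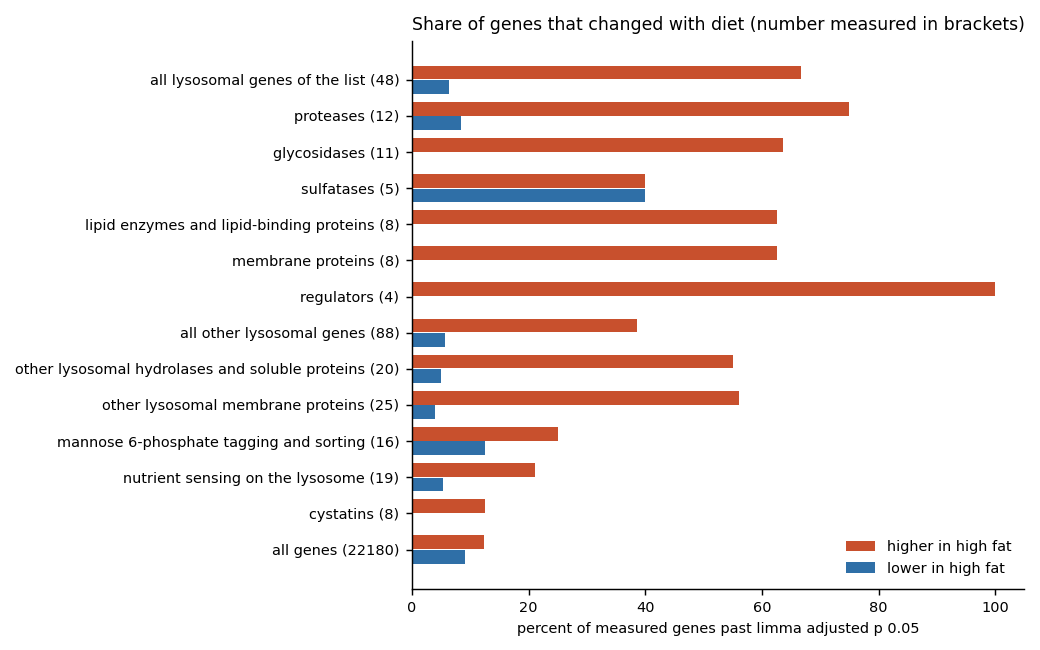
Percent of measured genes called higher (red) or lower (blue) in high fat diet at a limma adjusted p under 0.05, for the 48 lysosomal genes, their 6 role groups, the further lysosomal lists and all genes. The 48 genes stand at 66.7% higher and 6.25% lower, the further lysosomal genes at 38.6% and 5.68%, and all genes at 12.4% and 9.13%. The share of all genes includes dim genes.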

How the data were processed

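RNA of periprostatic fat from 9 mice was measured on 9 arrays. The values the authors deposited are on a log2 scale, 1 for each probe set and array. RMA, limma and R 3.5.0 are named in the submitters' processing notes, without saying what each was used for. The sources used here do not say whether arrays were normalized jointly, how rows were filtered or which batches existed. Detection was not assessed. The number of arrays limits the precision.

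Of 33793 rows, 23521 had exactly 1 gene symbol, giving 22180 genes with the brightest probe set for each. Of 97 further lysosomal entries 88 were measured, and of 95 marker entries 91. Diet was tested with limma 3.58.1 in R 4.3.3 (lmFit and eBayes, intercept and diet), adjusted by Benjamini-Hochberg over all genes, on the deposited values. Pairs of genes were compared by a two-sided exact permutation test over 126 assignments of mice. The steps were tested on simulated data. The members and lists were chosen with earlier results of these data known. Members with the 4 largest differences per role, or called against their group, are given by mouse; further lists by the 3 smallest p-values per direction. A planned comparison of protein stretches was not made.

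Same-numbered mice had correlations of deviations from group means of 0.05 to 0.13, so the numbers were not taken as pairs. The labels give each array as 1 mouse.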

Additional observations from a re-analysis of the deposited data

Results flagged for a closer look

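Each lysosomal gene and each list mean, in 5 high fat or 4 low fat mice, gave 140 sets of values. In these, 1 mouse lay far from the rest of its group 7 times. Chance alone gives about 1 in 20, so the number found is about that of chance. Among the lysosomal genes Mitf was flagged, which read 8.58 in low fat mouse 2 and 8.66 to 8.67 in the rest of that group. So was the mean of the membrane proteins, at 10.33 in low fat mouse 4 against 10.42 to 10.44. Among marker lists, smooth muscle genes averaged 10.66 in low fat mouse 2 against 8.36 to 8.40, and skeletal muscle genes 8.40 in high fat mouse 1 against 6.36 to 6.47 and 7.14 in low fat mouse 4 against 6.27 to 6.39. Adipocyte genes averaged 12.42 in low fat mouse 1 against 12.49 in the others, and prostate and seminal vesicle genes 5.78 in high fat mouse 5 against 5.69 to 5.71.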

How the results depend on the processing

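Over 18 alternatives to the fit the number of lysosomal genes higher in high fat diet lay between 26 and 32, and 26 of the 32 genes were called higher in every one. With arrays centred on their medians 5 lysosomal genes were lower in place of 3, and 3056 of all genes in place of 2026. Without high fat mice 1 and 2, 1716 of all genes were higher. Npc2 minus Npc1 was 0.03 with the mean of the probe sets (adjusted p = 0.794). Leaving out 1 mouse at a time, Npc2 minus Npc1 was between -0.30 and -0.19 and passed without low fat mouse 3, and Tfe3 minus Tfeb was between -0.01 and 0.12 and passed without low fat mouse 2; the cause was not tested. Gaa, never past the threshold, was at -0.02 with quantile normalization repeated and with centred arrays, at 0.00 with the mouse number as a block and without high fat mouse 5, and between -0.01 (without low fat mouse 4) and 0.05 over all omissions of 1 mouse. With the mouse number as a replicate block, 31 lysosomal genes were higher and 3 lower, and 2421 and 1615 of all genes. Under it Sgsh (0.21, adjusted p = 0.0965) and Ids (-0.22, adjusted p = 0.0513) lost their calls and Ctsc gained one (-0.26, adjusted p = 0.0266), and 2 of 4 numbers matched best with their own. By the unadjusted exact permutation test Ctsc, Smpd1, Laptm4a (p = 0.0159 each), Arsa and Lamp2 (p = 0.0317 each) passed in addition, and Tfeb did not (p = 0.0635). With 3 mice against 4 that test cannot pass, so pairs without 2 mice were compared by value only. No detection calls were used, so folds of dim genes hold for the deposited values.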

Other observations

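Glb1, the beta-galactosidase that forms a complex with Ctsa and Neu1, was left out of the counts because its probe set is also assigned to Tmppe. That probe set read 9.12, 9.10, 9.10, 8.94 and 9.01 in high fat mice 1 to 5 and 8.77, 8.63, 8.70 and 8.68 in low fat mice 1 to 4. All high fat mice were higher, by 0.36 or 1.28-fold (two-sided exact permutation test, p = 0.0159, the smallest possible), and which of the 2 genes gave the signal cannot be told apart.

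Of the 4 lysosomal genes with 2 probe sets each, the dimmer one was in the same direction for Pla2g15 (0.19 against 0.54 for the brighter one), Smpd1 (-0.26 against -0.10) and Npc1 (0.07 against 0.60), and in the other direction for Arsb (0.03 against -0.27).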
